A study of Rattus norvegicus with 48 samples.

Results

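Prenatal ethanol was compared with prenatal saline in the amygdala, averaged over both housings, across all mature and precursor microRNAs (miRNAs) of small RNA libraries from Long Evans rats. The members were the 24 amygdala libraries among 48 in the series, chosen by the region letter of the library code: 12 from offspring of ethanol-injected dams and 12 from offspring of saline-injected dams. The other 24 libraries came from the ventral striatum and were used only to test whether an ethanol difference differed between regions. Offspring were exposed in utero through intraperitoneal injections of the dam in mid-gestation, were kept from weaning with same-sex littermates (non-enriched) or with unfamiliar same-sex rats from untreated dams (socially enriched), and were taken at postnatal day 42. Each exposure held 6 libraries per housing, 3 from females and 3 from males, and each library was a pool of RNA from 3 rats of one sex and group. All rats, saline controls included, came from an injected dam and had a social interaction test before tissue was taken. The litters behind each pool are not given in the sources used here, so pools may share dams, and p-values measure the spread between pools.

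miRNAs are short RNAs cut from hairpin precursors, and one or both arms of the hairpin (5p and 3p) become mature guides that repress messenger RNAs. Pairing rests chiefly on the seed, bases 2 to 8 of the mature strand, so miRNAs with the same seed form a family with overlapping targets. The amygdala processes fear, anxiety and social signals, and prenatal ethanol is a known cause of lasting social and emotional impairment.

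The mature forms of the more abundant names described below are shown first, because these had at least 10 RPM and one direction in every stratum of sex and housing, or are an arm or near-identical form of such a name, and because reads of near-identical forms can be assigned to the wrong name. Of 498 mature names tested, 460 were found in the RefSeq miRNA table (GRCr8), from which the sequences are taken, 5′ to 3′ with the seed in capitals. The let-7 forms share one seed, and let-7c-5p differs from let-7b-5p by A17G and from let-7a-5p by G19A (counted from 1 at the 5′ end, the base of let-7c-5p first).
let-7c-5p: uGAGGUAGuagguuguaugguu
let-7b-5p: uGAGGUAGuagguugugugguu
let-7a-5p: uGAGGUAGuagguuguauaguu
miR-203a-3p: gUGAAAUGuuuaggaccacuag
miR-148a-5p: aAAGUUCUgagacacucugacuc
miR-148a-3p: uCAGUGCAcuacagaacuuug
miR-674-5p: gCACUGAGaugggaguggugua
miR-139-5p: uCUACAGUgcacgugucuccag
miR-375-3p: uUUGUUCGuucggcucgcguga
The 2 arms of mir-148a carry different seeds, and none of the seeds of miR-203a-3p, miR-148a, miR-674-5p, miR-139-5p and miR-375-3p is that of let-7.

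In GRCr8 the mir-203a hairpin lies at chr6:137020705-137020801 (+ strand), where it overlaps another annotated miRNA gene, Mir3545. The mir-148a hairpin lies at chr4:81664431-81664527 (- strand) and overlaps no other gene of the RefSeq list. The let-7c-5p sequence is encoded at 2 places in that build, by let-7c-1 at chr11:29688112-29688205 within the span of a long noncoding RNA gene and by let-7c-2 at chr7:118683623-118683717, close to the let-7b-5p sequence at chr7:118684044-118684065. The reads themselves were aligned to an older build, Rn5, so these positions locate the genes and not the reads.

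The values are normalized signals in RPM (reads per 1000000 reads), scaled separately for mature and for precursor names. The worth of 1 read was taken as the most frequent low value of each library. It gave 363108 to 1287664 mature reads per amygdala library, with a median of 806938 in the ethanol group and 996618 in the saline group. One read was worth 0.777 to 2.75 RPM of a mature name. The number in the library code, whose meaning is not stated, was also higher in the ethanol group, at 10 to 88 (median 61) against 2 to 56 (median 22). Both depth and number thus moved with exposure. With depth as a covariate 55 names, and with the library number as a covariate 117 names, had an unadjusted p under 0.05 for the ethanol effect described below, against 40 without them, and 0 passed adjustment in either fit. Neuronal miRNAs were present in every library, the sum of miR-124-3p, miR-128-3p, miR-132-3p and miR-138-5p being 7237 to 14473 RPM after ethanol and 9295 to 13864 RPM after saline. In tissue pools, fewer cells of a type and less RNA per cell cannot be told apart.

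No miRNA passed the test for the ethanol effect over both housings. Of 910 names tested on log2(RPM + 1) with limma, 0 (0%) had an adjusted p (Benjamini-Hochberg) under 0.05, and the smallest adjusted p was 0.147. At an unadjusted p under 0.05 there were 40 names (4.4%), 11 higher (1.21%) and 29 lower (3.19%) after ethanol, where 45.5 would fall under that threshold by the threshold alone. Of the 40, 21 had a mean of at least 10 RPM (3.61% of the 582 names at that level), and in 14 the highest library held under 10 reads. The exact permutation test within sex and housing placed 36 of the 40 under 0.05, and 44 of all 910 names (4.84%). The plot of level against difference shows that the larger differences of low names and of a group of choroid plexus and ciliated cell miRNAs came with wide spread.

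**Figure D1:**
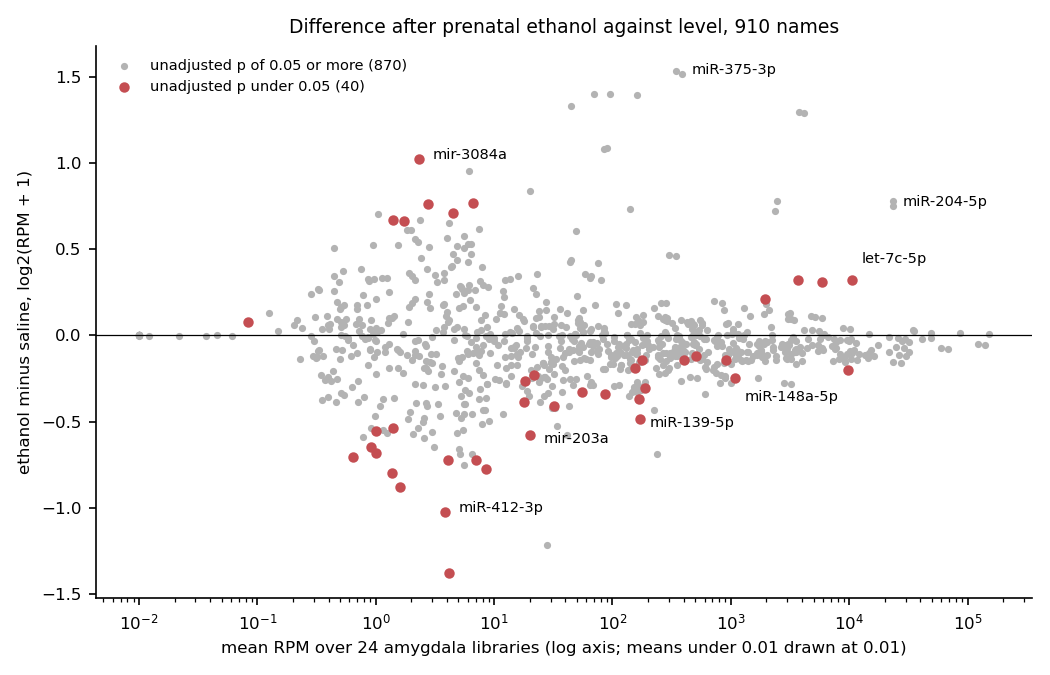
Ethanol minus saline difference in log2(RPM + 1) against mean RPM (log axis) for 910 names in 24 amygdala libraries, each point a mature or precursor name. The 40 red points had an unadjusted p under 0.05, 29 of them below 0, and none had an adjusted p under 0.05.

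The size of change that these libraries could have missed was limited for abundant miRNAs. Among 582 names with a mean of at least 10 RPM, the median standard error of the difference was 0.13 and the median size of the difference was 0.10 on the log2 scale. For 752 of the 910 names, low ones included, the 95% interval of the difference lay within 1 log2 unit either way. For names under 10 RPM the added 1 shrinks differences, so a narrow interval there does not exclude a large fold. Of the 910 names, 31 never reached 1 read in an amygdala library. The 10 most abundant mature miRNAs made up a median of 59.5% of the mature signal in both exposures. The most abundant, miR-181a-5p, ranged from 112316 to 211478 RPM (median 151479) after ethanol and from 124748 to 174586 RPM (median 152280.0) after saline. Its difference of 0.01 had a 95% interval of -0.17 to 0.19. miR-127-3p, from the imprinted region of Rtl1, followed with a difference of -0.05 (interval -0.29 to 0.18), and miR-26a-5p, a neuronal and glial miRNA, with -0.08 (interval -0.24 to 0.08).

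The smallest p belonged to mir-203a, the precursor of an miRNA known best from skin, where it restrains epithelial progenitor growth. It measured 9.55 to 23.9 RPM (median 15.6) in the 12 ethanol libraries and 16.5 to 34.5 RPM (median 24.3) in the 12 saline libraries. All 12 ethanol libraries lay below the saline median and 7 lay below the lowest saline library, so the groups overlapped. The difference was -0.58 ± 0.12 (SE) on the log2(RPM + 1) scale, with an adjusted p of 0.147 (limma) and an unadjusted exact permutation p of 0.000538 (n = 12 and 12). A fit of RPM without logarithms gave mir-203a an adjusted p of 0.0196, and the same adjusted p to mir-203b, whose values ran parallel at a mean of only 0.00484 RPM, far under the worth of 1 read.

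The mature arm miR-203a-3p sat near the limit of detection, at 0.0256 to 13.4 RPM (median 5.68) after ethanol and 4.6 to 22.5 RPM (median 9.41) after saline. Its difference was -0.78 ± 0.33 with an unadjusted limma p of 0.0297 and an adjusted p of 0.848. Only a median of 35.6% of the reads of the mir-203a precursor fell on its annotated arms, and the precursor itself held 4 to 37 reads per library. The level of mir-203a therefore rests on few molecules. The deposited values do not give the strand of each read, so reads of the overlapping gene were not told apart from its own.

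The next was miR-148a-5p, the only name the study lists for ethanol in the amygdala of both housings, so that its selection used these libraries. miR-148a is known for regulating lipid metabolism and DNA methyltransferase levels through its 3p arm. miR-148a-5p measured 749 to 1241 RPM (median 993) after ethanol and 1089 to 1327 RPM (median 1171) after saline. Of the 12 ethanol libraries 11 lay below the saline median and 9 below the lowest saline library. The difference of -0.25 ± 0.07 corresponded to 0.842 times the saline level, with an adjusted p of 0.426 (limma) and an exact permutation p of 0.000825 (unadjusted).

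One pool weighed on this value. The exception among the ethanol libraries was the third non-enriched female pool, at 1241 RPM, and without it miR-148a-5p (-0.30, adjusted p 0.00325) and mir-203a (-0.62, adjusted p 0.0479) both passed in limma. The number of names at an unadjusted p under 0.05 was 87 without that pool, 75 of them lower after ethanol. No reason to leave it out is given by the labels, its depth of 920810 mature reads was above the group median, and its library number of 88 was the highest of all 24.

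The precursor and the other arm of mir-148a had smaller differences. mir-148a measured 7421 to 11222 RPM (median 9123) after ethanol and 9462 to 12664 RPM (median 10188) after saline, a difference of -0.20 ± 0.06 with an adjusted p of 0.548. miR-148a-3p had a difference of -0.15 ± 0.10 (95% interval -0.36 to 0.05). Only a median of 11.2% of the precursor's reads were counted on the 2 annotated arms, with 89% outside them after ethanol and 88.7% after saline. The precursor value is thus largely made of reads that neither mature name holds. Of the 9 tested names of the family of miR-148 and miR-152, 7 were lower after ethanol with a median of -0.08, and miR-152-3p, at 2.17 to 9.68 RPM (median 5.75) after ethanol and 0 to 7.49 RPM (median 2.45) after saline, had the opposite sign (0.71 ± 0.27, adjusted p 0.848).

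**Figure D2:**
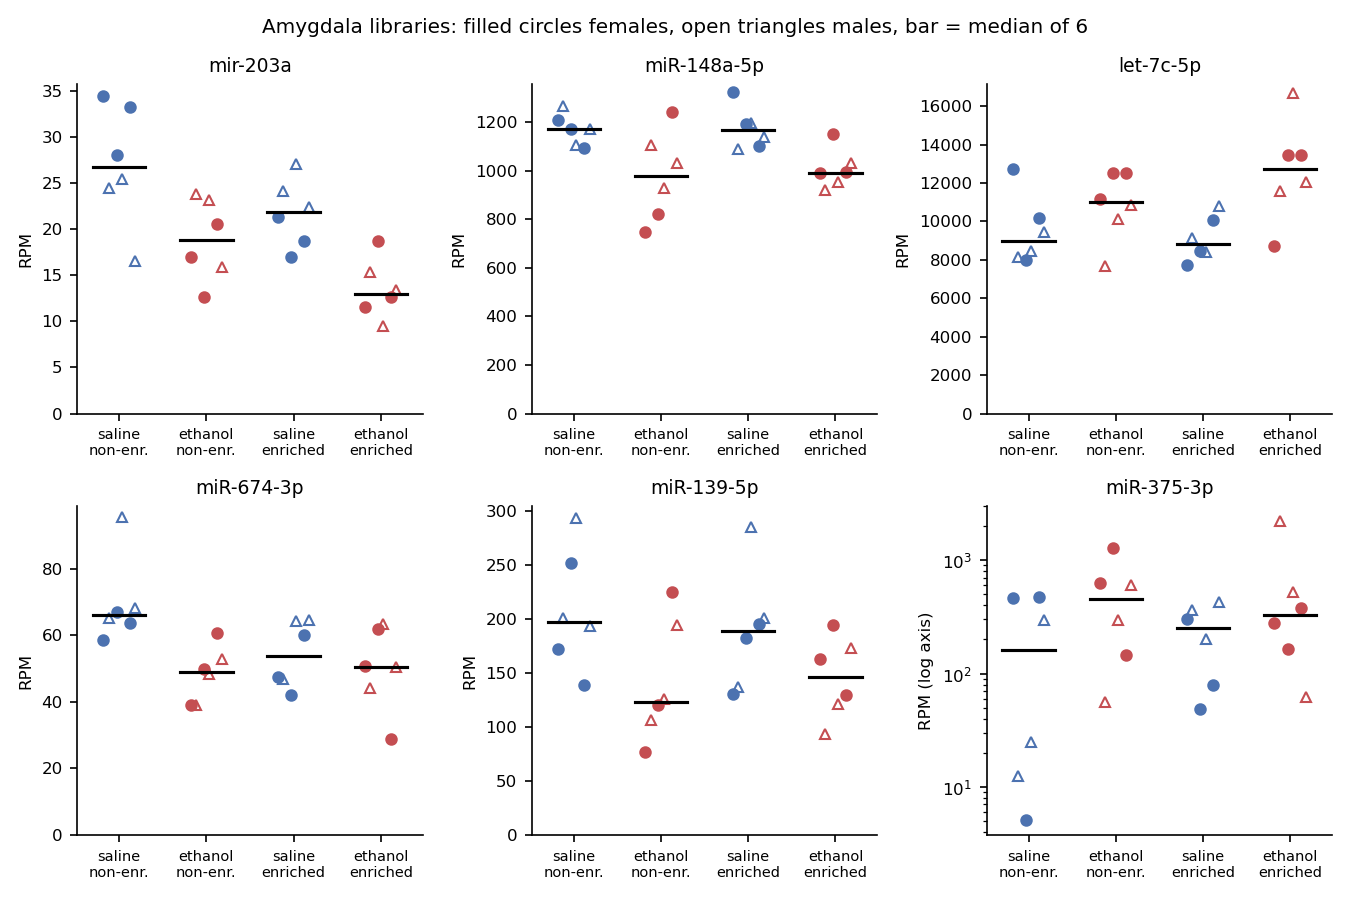
RPM of 6 names in each of the 24 amygdala libraries by exposure and housing (circles females, triangles males, bar the median of 6 libraries; log axis for miR-375-3p only). In mir-203a and miR-148a-5p 12 and 11 of the 12 ethanol libraries lay below the median of all saline libraries, and in let-7c-5p 10 lay above it.

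The remaining names on the lower side, by a rule that asked for a mean of at least 10 RPM and one direction in all 4 strata of sex and housing, were mir-674 and both its arms, miR-139-5p, mir-129-1, miR-325-5p and miR-30c-5p. That direction held in all 4 strata for 191 of 910 names (21%), 50 of them higher (5.49%) and the others lower (15.5%), and it was part of the rule. miR-674-3p measured 28.8 to 63.3 RPM (median 50.1) after ethanol and 42 to 95.6 RPM (median 64) after saline. All 12 ethanol libraries lay below the saline median, and the ranges overlapped. Its difference was -0.33 ± 0.13 and that of miR-674-5p -0.41 ± 0.17. The precursor gave -0.34 ± 0.12, and a median of 88.3% of its reads lay on the arms. The precursor value is thus largely made of the reads of both arms and is not independent of theirs.

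miR-139-5p, a brain miRNA also known as a tumour suppressor in epithelia, measured 77 to 225 RPM (median 127.9) after ethanol and 131 to 294 RPM (median 194) after saline. It lay below the saline median in 10 of 12 ethanol libraries. The difference was -0.48 ± 0.19, with an adjusted p of 0.848 that ranged from 0.0842 to 1 over the alternatives on the log2 scale. With the library number as a covariate the difference was -0.93 (adjusted p 0.0842, limma).

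mir-129-1, precursor of a neuronal miRNA that damps excitability, measured 92.6 to 201 RPM (median 147.5) after ethanol and 147 to 261 RPM (median 171) after saline. The difference of -0.37 ± 0.14 was present in each stratum, from -0.45 to -0.32. Its mature 5p form cannot be assigned to it alone, since mir-129-2 encodes the same sequence. miR-325-5p (-0.19 ± 0.07) and miR-30c-5p (-0.12 ± 0.05) had smaller differences, and that of miR-30c-5p was -0.05 (unadjusted p 0.475) after rescaling by median ratios.

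On the higher side the leading names were let-7c and let-7b. The let-7 family restrains growth programmes and is among the most abundant miRNA families of mature neurons. let-7c-5p measured 7687 to 16679.5 RPM (median 11820.1) after ethanol and 7747 to 12734 RPM (median 8821) after saline. The ranges overlapped, with 10 of 12 ethanol libraries above the saline median and 3 above the highest saline library. The difference was 0.32 ± 0.10 (1.25 times the saline level), with an adjusted p of 0.548 and an exact permutation p of 0.00451 (unadjusted).

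Both let-7c precursors gave about the same difference, 0.32 ± 0.09 for let-7c-1 and 0.31 ± 0.12 for let-7c-2, but since they encode one mature sequence their reads were divided between them and the 3 values are not independent. let-7b-5p measured 1407 to 2817 RPM (median 2101) after ethanol and 1465 to 2471 RPM (median 1740.5) after saline, a difference of 0.21 ± 0.09 (adjusted p 0.848). Each let-7c and let-7b value was higher in all 4 strata, which the rule required.

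The other mature 5p members of the family had differences of the opposite sign or near 0. let-7a-5p, 1 base from let-7c-5p, gave -0.06 (95% interval -0.16 to 0.04), and let-7f-5p, the most abundant member at a mean of 21843 RPM, gave -0.01 (interval -0.10 to 0.08). The sum over 9 let-7 and miR-98 5p names was 66800 to 81365 RPM (median 74549) after ethanol and 65396 to 80633 RPM (median 73494) after saline. The share of let-7c-5p in that sum was 11.5% to 20.5% (median 15.6%) after ethanol and 10.7% to 15.8% (median 12.2%) after saline. Of 33 let-7 names tested, 11 were higher and 22 lower after ethanol with a median of -0.04; on the median-ratio scale 21 had a positive and 12 a negative sign, so the direction of the family as a whole depended on the scaling. let-7c-5p and let-7b-5p were higher on both scales, at 0.39 and 0.28 on the median-ratio scale.

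**Figure D3:**
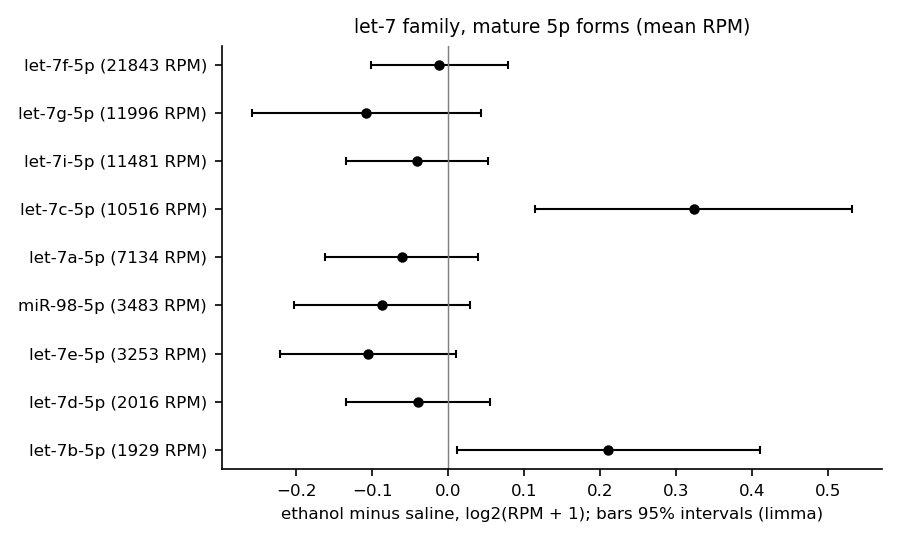
Ethanol minus saline difference in log2(RPM + 1) with 95% intervals (limma) for the 9 mature 5p names of the let-7 family, ordered by mean RPM. The intervals of let-7c-5p and let-7b-5p lie above 0 and those of the other 7 include 0, before adjustment over all names.

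The let-7c and let-7b differences moved with the library number. With that number as a covariate let-7c-5p differed by 0.20 (unadjusted p 0.127), and among libraries numbered up to 56, which leaves 5 of the 12 ethanol libraries, it was 0.12 (unadjusted p 0.356). In the same fits let-7b-5p differed by 0.10 (unadjusted p 0.400) and 0.02 (unadjusted p 0.835). The values of let-7c-2 were 0.19 (unadjusted p 0.239) and 0.08 (unadjusted p 0.626). The other precursor, let-7c-1, kept 0.20 to 0.39 over 14 alternative fits on the log2 scale, these 2 included. Its largest unadjusted p among them was 0.109 and its smallest adjusted p 0.241 (limma). Of the 33 let-7 names, 0 were higher and 6 lower at an unadjusted p under 0.05 with the number as a covariate, against 4 and 0 without it. Over all 910 names 16 were higher and 101 lower at that level with the number as a covariate, against 11 and 29 without it. The values of miR-148a-5p in the 2 fits were -0.36 and -0.36, and those of mir-203a were -0.45 and -0.52.

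The other higher names of the rule included markers of ventricular tissue. miR-34b-3p is a marker of ciliated epithelium and mir-1912 of the choroid plexus, the fluid-secreting tissue of the ventricles. miR-375-3p, best known from endocrine cells, measured 56.6 to 2221 RPM (median 339) after ethanol and 5.09 to 472 RPM (median 249.8) after saline. Its difference of 1.52 ± 0.81 had an adjusted p of 0.848 and the groups overlapped widely. Without the second non-enriched female saline pool it was 0.99. miR-34b-3p differed by 1.40 ± 0.85 and mir-1912 by 1.33 ± 0.95. miR-17-5p (0.35 ± 0.19) and miR-652-3p (0.42 ± 0.31) completed the rule, and miR-652-3p was at 0.26 without the third non-enriched female ethanol pool and reversed to -0.47 with the library number as a covariate.

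The marker lists moved together with these names. The part of adjoining ventricular tissue in these values was not tested beyond the fits given here. The choroid plexus markers miR-204-5p, miR-211-5p and miR-448-3p summed to 3529 to 122693 RPM (median 19916) after ethanol and 3127 to 32028 RPM (median 8370.4) after saline, none of them at 0 in any library. All 11 tested choroid plexus names were higher after ethanol (median 0.73), as were all 9 ciliated epithelium names (median 1.29), and 0 of either had an unadjusted p under 0.05. This direction was not shared by all strata. In socially enriched males 10 of the 11 choroid plexus names (median -0.26) and 8 of the 9 ciliated names (median -0.24) were lower after ethanol, against medians of 0.37 to 1.62 and 1.51 to 1.96 in the other strata. In the ventral striatum 8 of 11 (median -0.03) and 9 of 9 (median -1.17) were lower. The summed ciliated markers ranged from 246 to 13977 RPM (median 4426) after ethanol and from 150.2 to 8426 RPM (median 1843) after saline. The highest miR-204-5p value, 122453 RPM, stood against an ethanol median of 19818 RPM, and the 2 ethanol pools richest in miR-204-5p were both non-enriched. Without these 2 pools the choroid plexus median was 0.19, with 8 of 11 higher, and miR-375-3p differed by 1.16; with the summed choroid plexus markers as a covariate miR-375-3p differed by 0.85, let-7c-5p by 0.28, miR-148a-5p by -0.22 and mir-203a by -0.52.

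Several names with small p were at a handful of reads. miR-29c-5p measured 2.69 to 9.64 RPM (median 4.34) after ethanol and 4.68 to 16.3 RPM (median 7.88) after saline (-0.72 ± 0.20, adjusted p 0.426), while its abundant partner arm miR-29c-3p gave -0.14. miR-130b-3p measured 0 to 6.29 RPM (median 2.87) after ethanol and 1.98 to 7.72 RPM (median 5.39) after saline (-0.73 ± 0.20, adjusted p 0.426). miR-412-3p, of the imprinted miR-379 to miR-410 cluster, measured 0 to 8.26 RPM (median 1.68) against 1.93 to 8.38 RPM (median 4.97). Differences of such names depend on the constant added before the logarithm and are not read as folds.

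Among groups of related miRNAs, the imprinted clusters were mostly lower, without any member passing the test. In the miR-379 to miR-410 cluster, a maternally expressed run of neuronal miRNAs, 75 of 85 tested names were lower after ethanol with a median of -0.13. All 910 names had a median of -0.05, with 580 lower (63.7%). In the Rtl1 antisense group 17 of 18 were lower (median -0.09). After median-ratio rescaling, which set the median of all names to 0.00, 63 of 85 and 11 of 18 were lower with medians of -0.06 and -0.02.

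The strata differed in this. In non-enriched females 78 of 85 names of the larger cluster were lower (median -0.28), in enriched females 63, in non-enriched males 54 and in enriched males 44 (median -0.01). Of the 18 Rtl1 antisense names, 18 were lower in non-enriched females (median -0.29) and 15 in enriched females (median -0.13). In non-enriched males 9 of the 18 were lower (median 0.00) and in enriched males 5 (median 0.05). In the miR-379 to miR-410 cluster 1 name, miR-412-3p, was lower at an unadjusted p under 0.05, among 29 of all names. That count was 11 among 75 without the third non-enriched female ethanol pool and 16 among 71 with array weights. Its most abundant member, miR-410-3p, ranged from 6337 to 16052 RPM (median 9393) after ethanol and from 8536 to 13614 RPM (median 10759) after saline (-0.14 ± 0.13).

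The neuronal list gave 39 of 50 names lower (median -0.12), with mir-129-1 alone at an unadjusted p under 0.05. In that list 10 names were lower at that level without the third non-enriched female ethanol pool, against 75 of 906 over all names. With the library number as a covariate 14 of the list were lower and 2 higher (median -0.27), against 101 lower and 16 higher among all 910 names. In the miR-29 list 10 of 12 were lower (median -0.14), in the list of miR-30 and miR-384 13 of 17 (median -0.05) and in the list of miRNAs known to respond to ethanol in neural progenitors 11 of 14 (median -0.06), with miR-153-3p the smallest p at -0.28 ± 0.15 (adjusted p 0.848). The names of miR-221 and miR-222 were all lower (5 of 5, median -0.08), and those of the X-linked miR-322 to miR-450 cluster were split, 13 of 21 lower (median -0.05). By stratum, all 5 names of miR-221 and miR-222 were lower in non-enriched females (median -0.34) and males (median -0.40). All 5 were higher in socially enriched females (median 0.18) and males (median 0.17). In socially enriched males 28 of the 50 neuronal names (median 0.02) and 7 of the 12 miR-29 names (median 0.06) were higher. In each other stratum 6 to 9 and 1 to 3 of these names were higher. The miR-17-92 group was higher in 23 of 30 (median 0.06), the group of miR-15, miR-16 and miR-195 in 10 of 11 (median 0.06) and the miR-181 group in 10 of 14 (median 0.01). The signs of several lists turned with the fit. On the median-ratio scale 12 of 17 names of miR-30 and miR-384 (median 0.02) and 13 of 21 of the X-linked cluster (median 0.02) were higher, and with the library number as a covariate 11 of 14 names of the progenitor list were higher (median 0.01). In the fit first described, each of these lists held 0 to 2 names at an unadjusted p under 0.05 and 0 at an adjusted p under 0.05.

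Lists for other cell types showed no common direction beyond the choroid plexus and ciliated names. Oligodendrocyte names were higher in 8 of 10 (median 0.05), microglial and immune names in 7 of 16 (median -0.04), vascular and mesenchymal names in 4 of 13 (median -0.05), red blood cell names in 2 of 5 (median -0.03) and names of the miR-200 and miR-183 groups in 5 of 15 (median -0.03). Muscle and liver names were higher in 5 of 10 (median 0.07). The strata of the oligodendrocyte list differed. Of its 10 names, 10 were higher in non-enriched females (median 0.65) and 6 in socially enriched females (median 0.07). In males 9 of 10 were lower in either housing (median -0.36 in non-enriched and -0.22 in socially enriched). In the ventral striatum 10 of 10 were higher (median 0.23). The microglial marker miR-223-3p was at 0 in 21 of 24 libraries.

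No ethanol difference was shown to differ between the housings or the sexes. For the difference between housings, 35 of 910 names (3.85%) had an unadjusted p under 0.05, 0 passed adjustment and the smallest adjusted p was 0.957. Between the sexes the counts were 27 (2.97%) and 0, with a smallest adjusted p of 0.512. The intervals were wide: for let-7c-5p the difference was 0.19 ± 0.14 in non-enriched and 0.46 ± 0.14 in socially enriched rats, and the socially enriched minus non-enriched value of 0.27 had a 95% interval of -0.15 to 0.69. For miR-148a-5p the housings gave -0.27 ± 0.10 and -0.22 ± 0.10, with an interval of -0.23 to 0.34 for their difference, and for mir-203a -0.49 ± 0.17 and -0.66 ± 0.17, with an interval of -0.67 to 0.34.

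The names that the study lists for ethanol in one housing were examined in the other as a description. The study also ran a miRNA array on the same pooled RNA. Names that the array covered were listed only where both platforms changed alike. Names it did not cover were listed on sequencing alone, at a stricter uncorrected threshold. Only the sequencing values were used here. The listing tests of the study came from one model of all amygdala libraries, so the libraries of the other housing entered its error term and the examination is not fully independent. Of the 29 names listed for non-enriched rats, 14 (48.3%) had the same sign in socially enriched rats, and 1 of these, miR-148a-5p, had an unadjusted p under 0.05 there, where 3.85% of all names did. Of the 11 listed for socially enriched rats, 5 (45.5%) had the same sign in non-enriched rats, again with miR-148a-5p as the 1 under 0.05, against 4.51% of all names. miR-148a-5p is on both lists, so neither housing is an independent test of it. Over all 910 names the sign was the same in 507 (55.7%). The let-7c-5p and let-7c-2 names were among the 5, at 0.19 and 0.18 in non-enriched rats against 0.46 and 0.44 in socially enriched rats.

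Many listed names were near 0 or of opposite sign in the other housing. miR-221-3p differed by -0.37 in non-enriched and 0.12 in socially enriched rats, and miR-222-3p by -0.32 and 0.19. The choroid plexus and ciliated names on the non-enriched list were at 1.79 (miR-448-3p) and 1.88 (miR-449a-5p) in non-enriched rats, and gave -0.57 and 0.29 in socially enriched rats. Of the 29 names 4 had an unadjusted p under 0.05 over both housings.

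**Figure D4:**
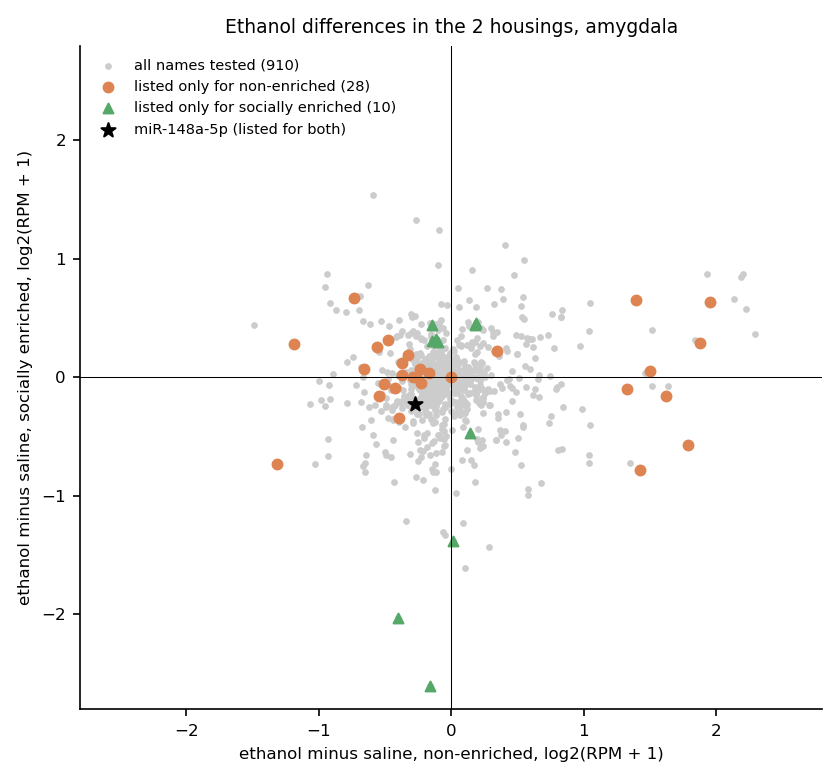
Ethanol minus saline difference in log2(RPM + 1) in socially enriched against non-enriched amygdala for 910 names, with the names the study lists for one housing in colour. Names listed for one housing spread to both sides of 0 in the other (14 of 29 and 5 of 11 with the same sign), and miR-148a-5p, the star, lies below 0 in both.

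The ethanol difference was set against that in the ventral striatum, whose libraries came from the same rats. Of 901 names tested for a difference between regions, 31 (3.44%) had an unadjusted p under 0.05 and 2 (0.222%) an adjusted p under 0.05, both from one hairpin, miR-133b-3p and mir-133b. miR-133b is best known from muscle and was also described in midbrain dopamine neurons. miR-133b-3p measured 0 to 3.09 RPM after ethanol (at 0 in 7 of 12 libraries) and 0.857 to 4.68 RPM after saline in the amygdala. In the ventral striatum it measured 0 to 4.88 RPM after ethanol and 0 to 2.49 RPM after saline (at 0 in 8 of 12 libraries). The amygdala minus ventral striatum difference was -1.92 ± 0.38 (adjusted p 0.00891, limma). Names entered this test by the number of libraries above 0, counted over both exposures together. miR-133b-3p thus entered although most ethanol amygdala libraries and most saline striatal libraries were at 0. Without this filter on names its adjusted p was 0.0105 (limma). The amygdala difference alone was -0.88, so the striatal difference had the opposite sign and made up the rest. In neither region alone did a name pass adjustment (0 of 910 and 0 of 901). The study lists miR-133b-3p, by sequencing, as higher after ethanol in the ventral striatum of both housings.

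No library held more than 6 reads of miR-133b-3p, and the highest was 3 reads in the ethanol amygdala and in the saline striatum, so both groups stood at the floor of 3 reads and no fold is given. miR-133a-3p differed from it by 1 base, A22G (counted from 1 at the 5′ end, miR-133b-3p first), so that reads could be assigned to either, and its own difference between regions was -0.45 ± 0.61. The other muscle markers were as low, miR-1-3p at 0 to 2.75 RPM and miR-206-3p at 0 to 7.92 RPM in the amygdala.

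None of the 20 names of the rule passed the test between regions. The let-7c-5p difference was 0.23 in the striatum (unadjusted p 0.0337, a level reached there by 2% of names) against 0.32 in the amygdala, and the difference between regions of 0.10 had an interval of -0.19 to 0.39. mir-203a gave -0.15 in the striatum, with an amygdala minus striatum value of -0.42 (interval -0.79 to -0.06, adjusted p 0.999). miR-148a-5p gave -0.08 in the striatum, with an interval of -0.41 to 0.07 for the difference. mir-375 and miR-375-3p had opposite signs, with miR-375-3p at -1.95 in the striatum and an amygdala minus striatum value of 3.46 (interval 1.14 to 5.79, adjusted p 0.848).

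**Figure D5:**
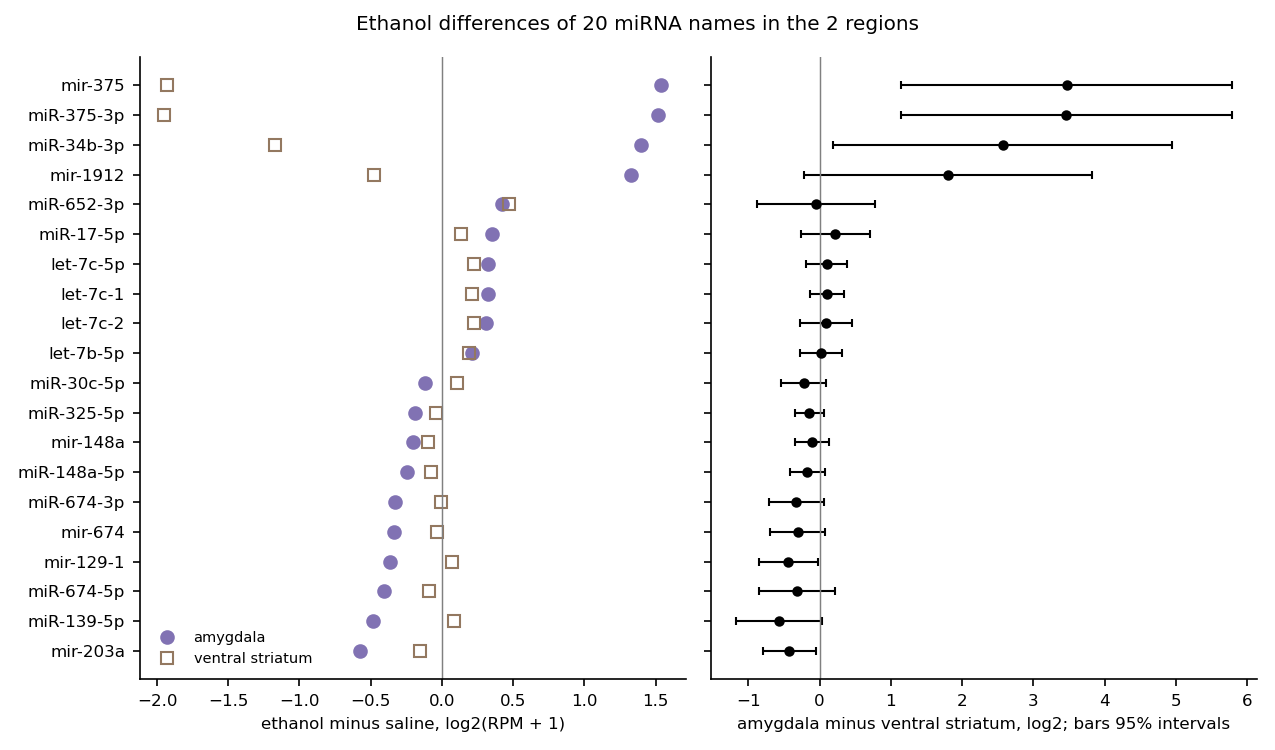
Left, ethanol minus saline difference in log2(RPM + 1) in the amygdala and the ventral striatum for the 20 names chosen by the rule; right, their amygdala minus ventral striatum difference with 95% intervals. The let-7c names lie above 0 in both regions, mir-375 and miR-34b-3p have opposite signs with wide intervals, and none of the 20 passed adjustment.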

How the data were processed

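Small RNA libraries of pooled total RNA were made with the TruSeq Small RNA kit and sequenced single-end. Reads were trimmed and then aligned to Rn5 with Bowtie by the authors, who quantified miRBase names in Partek Flow and deposited a normalized signal for every name and library, described as RPM. How reads matching several names were divided is not stated, and 3.27% of the amygdala values above 0 were under 0.01. These fractions mean that whole reads were not recovered and no count test was run. Reads are PCR products without molecular identifiers, and counting error is all that the floor of 3 reads takes in.

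Here 1129 lines (122 of them sharing 56 names) were summed to 1063 names. The 910 names above 0 in at least 6 of 24 libraries were fitted on log2(RPM + 1) in limma 3.58.1 (R 4.3.3; eBayes with trend), with 8 cells of sex, housing and exposure and the ethanol effect averaged over the 4 strata. Regions were compared in a fit of 48 libraries with 16 cells, and p-values were two-sided and adjusted over all names. That fit treated the 48 libraries as independent, although both regions came from the same rats. With libraries of consecutive numbers as a random block (correlation 0.05), miR-133b-3p and mir-133b had an adjusted p of 0.00551 (limma). Exact two-sided permutation tests ran over 160000 divisions within strata (Python 3.11.15, numpy 2.4.6, pandas 2.3.3). The smallest p that this permutation test can give is 1.25e-05, and the smallest it gave was 0.000538. Figures used matplotlib.

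On data simulated from the amygdala libraries, limma found 90.5% of 200 names changed by 1 on the log2 scale among 854, with 10 false calls, and 0 with no change. The changed names were drawn only from those with a mean of at least 10 RPM. Changes smaller than 1 were not simulated. The share found therefore does not hold for lower names or for smaller differences, such as the median size of 0.10 among names of at least 10 RPM.

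Named were any name with an adjusted p under 0.05, the 10 higher and 10 lower names with the smallest p among those of at least 10 RPM and one direction in all strata, the member with the smallest p and the most abundant mature member of each of 21 lists, and names listed by the study for both housings in the amygdala. The comparison, the members, the lists and the rule were chosen with earlier results of these data known.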

Additional observations from a re-analysis of the deposited data

Results flagged for a closer look

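Within the 4 amygdala groups of 6 libraries, the highest or lowest library stood apart from the rest by Dixon's criterion in 6 of 112 checks over 28 names, where chance gives about 1 in 20. In saline non-enriched rats let-7c-2 reached 7775 RPM in the first female pool (next 5449). In the same group mir-674 reached 139 RPM and miR-674-3p 95.6 RPM, both in the second male pool (next 102 and 68.1). In ethanol socially enriched rats mir-375 reached 1939 RPM and miR-375-3p 2221 RPM, both in the first male pool (next 468 and 525.97). In ethanol non-enriched rats miR-412-3p reached 7.60 RPM in the third female pool (next 2.69), the same pool without which miR-148a-5p passed adjustment.

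The ethanol difference of miR-133b-3p differed between amygdala and ventral striatum by -1.92, and that of mir-133b by -1.76, by the test of that difference. Mature and precursor hold the same reads, at most 5 per amygdala library, and the part of read assignment between miR-133b and miR-133a was not tested.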

How the results depend on the processing

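The count of 40 names at an unadjusted p under 0.05 for the ethanol effect was 16 with a mean of at least 10 RPM, 24 with mature names only, 82 with array weights, 55 with depth as a covariate, 117 with the library number as a covariate (16 of them among the 40), 93 with library numbers up to 56, and 32 to 87 with single libraries left out. After median-ratio rescaling the split was 17 higher and 18 lower. Adjusted calls were 0 except for 2 in the unlogged model and 0 to 2 with a library left out. For the difference between housings the 35 unadjusted names were 19 at 10 RPM, 21 for mature names, 59 with numbers up to 56 and 28 to 57 with a library left out, and adjusted calls 0 to 1, the 1 being mir-802 without the third non-enriched male saline pool. For the sexes the 27 were 7 at 10 RPM, 15 for mature names and 20 to 49 with a library left out. For the regions the 31 were 12 at 10 RPM, 15 for mature names and 22 to 48 with a library left out, and the 2 adjusted calls were 0 at 10 RPM, 1 for mature names and 2 to 3 otherwise. Of the names listed for non-enriched rats 6 had the same sign among mature names, and 10 to 18 with a library left out, against 14. miR-652-3p reversed to -0.47 with the number covariate and -0.44 with numbers up to 56. Where a filter or fewer libraries changed a count, fewer names or libraries were tested, and the cause of the other shifts was not tested.

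Deviations from group means were little correlated between same-numbered amygdala libraries (median r 0.02 over 84 pairs, 32 over 0.1). Differently numbered pairs gave a median r of -0.02 over 168 pairs, 54 over 0.1. Depth moved with the replicate number in males, where the second pool of every amygdala group was the shallowest. These pools held 363108 to 544070 mature reads, against 795545 to 1287664 in the other male amygdala pools. With the replicate number as a block, 45 names had an unadjusted p under 0.05 for the ethanol effect, 0 passed adjustment, and the 2 regional calls were kept. A term for the choroid plexus markers (35 names) and leaving out the 2 pools richest in them (31 names) were added after seeing the data.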
